A study of Rattus norvegicus with 30 samples.

Results

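The genes described here encode the major histocompatibility complex of the rat, named RT1, and the proteins that load peptide onto its products. They were taken by name: every row of the deposited gene table whose gene name starts with RT1-, plus B2m, Tap1, Tap2, Tapbp, Psmb8, Psmb9, Psmb10, Cd74, Ciita and Nlrc5. That gave 42 of the 30562 rows in the table, of which 22 are class I or class I-like RT1 genes, 10 are class II RT1 genes and 10 are antigen processing genes. After the filter on low counts 37 were tested, 17, 10 and 10 of the 3 kinds. The 5 class I-like rows that did not pass were RT1-M1-2, RT1-M1-4, RT1-M2, RT1-M5 and RT1-O1, and RT1-M1-4 had 0 counts in the 30 libraries.

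Expression was measured by RNA-seq in lung cells that carry CD31, a surface protein of endothelial cells, sorted with microbeads from wild-type rats 3 weeks after surgery. In the Glenn operation the superior vena cava is joined to the pulmonary artery, and sham animals had surgery without it. Each surgery was combined with a vitamin A control, deficient or excess diet, which gave 6 groups of 5 libraries: sham control, Glenn control, sham deficient, Glenn deficient, sham excess and Glenn excess. The strain, the sex and the age are not given in the labels. The Y-linked genes Ddx3y, Eif2s3y, Kdm5d and Uty divided the libraries alike, into 13 high (58.7 to 94.6 CPM in Ddx3y) and 17 low (at most 1.65 CPM), with 2 high libraries in each group and 3 in Glenn excess. Each group therefore holds animals of both sexes, and more than 1 animal. The labels do not say that all 5 libraries came from separate animals, so p-values measure the spread between libraries, part of which may be technical. The main tests carry no term for sex.

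Class I molecules stand on most nucleated cells and present peptides cut in the cytosol, paired with beta-2-microglobulin (B2m). The immunoproteasome subunits Psmb8, Psmb9 and Psmb10 cut the peptides, the transporter made of Tap1 and Tap2 carries them into the endoplasmic reticulum, and tapasin (Tapbp) helps to load them. Class II molecules present peptides taken up from outside the cell: the invariant chain Cd74 guards their groove, and the DM proteins exchange it for peptide. Nlrc5 switches on class I genes and Ciita class II genes, and interferon-gamma raises both routes. In the lung, class II is known on dendritic cells, B cells and macrophages, and also on capillary endothelium and type 2 alveolar cells. The genes of the complex differ between rat strains in number and sequence.

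The start regions of 4 of these genes are shown because the results turn on them: RT1-CE16 and RT1-A1, class I genes that took opposite courses among the libraries, and RT1-Da and RT1-Bb, class II chains of which RT1-Bb differed between library ranges and RT1-Da did not pass that test. The sequences are those of RefSeq on the GRCr8 build of the rat genome, whereas the submitters' processing notes name mRatBN7.2 for the counts. Each runs 5′ to 3′ along its gene from 150 bases before the annotated start to 20 bases after it, on chromosome 20. RT1-CE16 is at chr20:3265424-3265593 on the minus strand, RT1-A1 at chr20:4907059-4907228 on the plus strand, RT1-Da at chr20:4515265-4515434 on the plus strand and RT1-Bb at chr20:4604099-4604268 on the minus strand. Capitals mark the letters of 3 motifs on either strand: the Y box core CTGATTGG (CCAATCAG on the other strand), the kappa B letters GGGATTCCC and the interferon-stimulated response element core GAANNGAAA (here TTTCACTTC on the other strand). The marked motifs do not overlap each other.
RT1-CE16: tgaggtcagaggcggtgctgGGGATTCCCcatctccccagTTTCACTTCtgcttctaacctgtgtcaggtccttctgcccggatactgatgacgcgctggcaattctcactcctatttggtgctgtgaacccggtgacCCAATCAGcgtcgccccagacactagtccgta
RT1-A1: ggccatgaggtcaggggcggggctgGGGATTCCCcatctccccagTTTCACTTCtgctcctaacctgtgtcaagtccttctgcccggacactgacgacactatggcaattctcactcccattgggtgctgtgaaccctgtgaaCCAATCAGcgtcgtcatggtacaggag
RT1-Da: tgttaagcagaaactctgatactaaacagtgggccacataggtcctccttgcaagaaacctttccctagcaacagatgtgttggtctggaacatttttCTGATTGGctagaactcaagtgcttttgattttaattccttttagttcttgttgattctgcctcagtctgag
RT1-Bb: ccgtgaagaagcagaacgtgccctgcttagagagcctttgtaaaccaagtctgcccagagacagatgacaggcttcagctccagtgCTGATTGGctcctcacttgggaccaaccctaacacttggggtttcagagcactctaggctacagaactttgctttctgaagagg

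RT1-CE16 and RT1-A1 carry the 3 motifs in one order, with the kappa B letters starting 130 and 125 bases, the interferon element 110 and 105 bases and the Y box 12 and 7 bases before the start. Over the 300-base windows of the RefSeq table, which reach 250 bases before the start, RT1-CE16 and RT1-A1 were identical in 250 of 320 aligned columns (78.1%), against 46.0% for RT1-Da with RT1-Bb. A class I with a class II gene, RT1-CE16 with RT1-Da, gave 46.3%, and RT1-CE16 with RT1-CE15 gave 60.5%. RT1-Da and RT1-Bb hold the Y box alone, 52 and 64 bases before the start. Of the 41 gene names, 33 matched an entry of that table. The Y box letters were in 13 of the 33, among them 6 of 8 class II genes, 6 of 17 class I genes and 1 of 8 processing genes, and in 3.5% of 33469 promoters of the same length. The kappa B letters were in 2 of 33, RT1-CE16 and RT1-A1, and in 0.365% of those promoters. The interferon element was in 7 of 33 and in 8.54% of them. A match is a description of letters and not a site shown to be used.

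Total counts per library ran from 22029047 to 77647592. The gene table shares reads that fit several near-identical genes among them, and 56.3% of the values of the 42 genes were not whole numbers, against 13.6% in the whole table. For RT1-T24-4, RT1-CE16, RT1-O1l1, RT1-A1, Tap1, Psmb9 and Tapbp every library had such a value, so how reads were shared out is uncertain there. The values do not say with which genes reads were shared, and these need not be relatives. RT1-Da, RT1-DMa, RT1-DMb, Ciita, Nlrc5 and Psmb8 had no such value. Levels are given as CPM, scaled counts relative to the library total, which serve to compare libraries but not genes, since they are not per length. The library names fall in a range from 355 to 387 (22 libraries, here the 300s) and a range from 598 to 606 (8 libraries: sham deficient replicates 3 to 5, Glenn deficient 4 and 5, and Glenn excess 3 to 5). What the ranges stand for is not given, and the tests carry the range as a term. Sham deficient replicates 1 and 2 stood apart from the other libraries in several of these genes and are the sham deficient libraries of the 300s, so results that rest on them are given without them too.

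All 8 endothelial markers had a median of at least 1 CPM, and the T-cell chains Cd3d, Cd3e and Cd3g had a median under 0.1 CPM. The 6 leukocyte markers summed to 92.7 to 183 CPM in sham and 120.3 to 207 CPM in Glenn libraries. The 8 type 2 alveolar markers, among them the surfactant genes Sftpc and Sftpb, were present in every library and summed to 37796 to 64640 CPM in sham and 26697 to 60800 CPM in Glenn libraries.

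The first comparison asks how the Glenn operation changed these genes against sham surgery. Averaged over the 3 diets, 22 of the 37 tested genes fell after the Glenn operation and 0 rose, at an adjusted p under 0.05 in edgeR's quasi-likelihood test over 16171 genes. Of all 16171 genes, 24.7% were called lower and 23.4% higher in that comparison, 48.2% in all. The median log2 change was -0.39 over the 37 genes and -0.01 over all tested genes. With the Y-linked level as a term, added after seeing these data, 22 were again called lower, with RT1-DOa (-0.55) past the threshold and RT1-M10-1 (-0.13) no longer past it. Without that term the genes that fell were 8 of 17 class I or class I-like genes, 5 of 10 class II genes and 9 of 10 processing genes. None of the 42 kept its 15 Glenn libraries clear of its 15 sham libraries, in either direction, which 2.73% of tested genes did with Glenn lower and 3.1% with Glenn higher. Within a single diet the groups separated with Glenn lower in 2 of 42 rows for the control diet, 4 for the deficient diet and 2 for the excess diet, and with Glenn higher in 0. Of all tested genes 9.41%, 9.59% and 7.75% separated with Glenn lower on these diets, and 7.78%, 10% and 8.59% with Glenn higher.

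**Figure D1:**
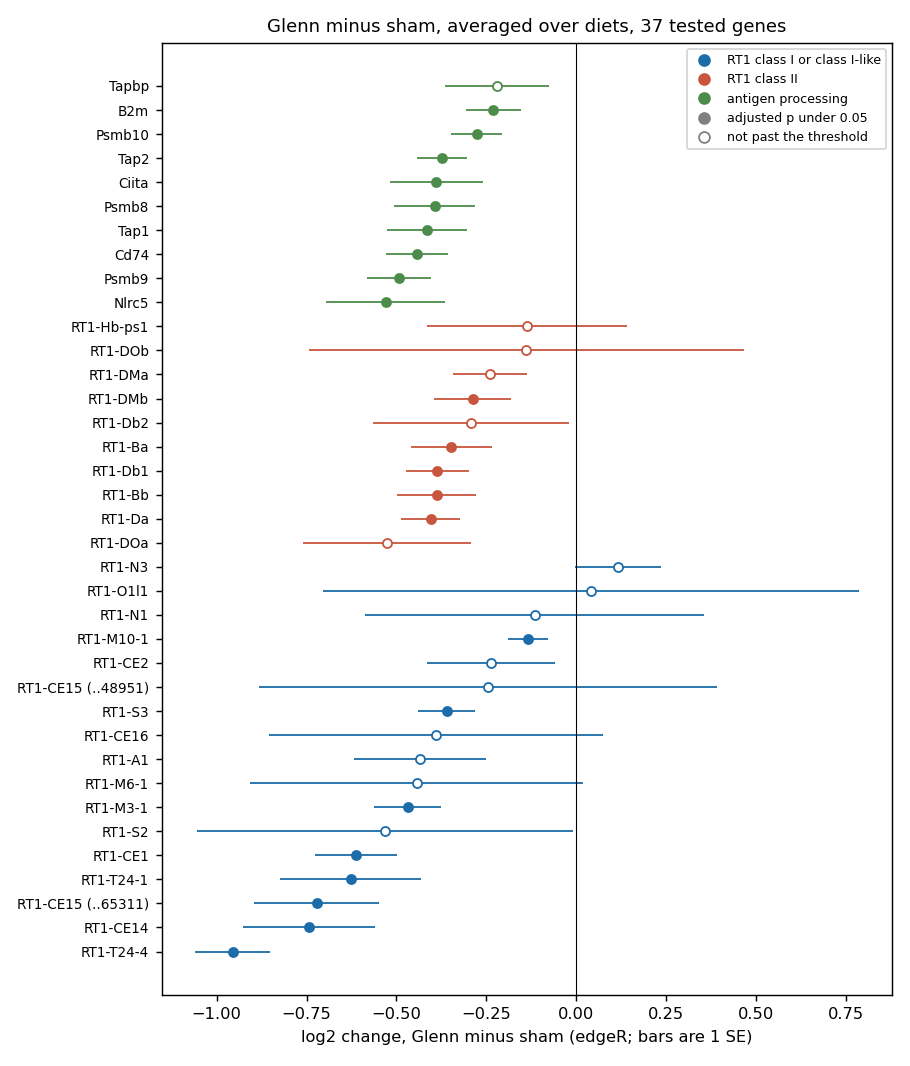
Log2 change, Glenn minus sham averaged over diets, of the 37 tested genes with 1 standard error, class I in blue, class II in red and processing genes in green, filled where the adjusted p was under 0.05. The 22 filled points all lie below 0, RT1-T24-4 lowest at -0.96, and the widest bars belong to genes with few or 2-level values such as RT1-O1l1.

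Among class I genes RT1-T24-4 fell most. Its level was 945, 1108, 1299, 1074 and 1004 CPM in the sham control and 536, 608, 561, 338 and 511 CPM in the Glenn control libraries. On the deficient diet the sham libraries had 1449, 1662, 673, 1159 and 588 CPM and the Glenn libraries 459.9, 498, 507, 472 and 425 CPM. On the excess diet the sham values were 1241, 998, 788, 1125 and 1022 CPM and the Glenn values 774, 754, 566, 436 and 382 CPM. Within each diet every Glenn library was below every sham library, which held for 3.83% of tested genes in all 3 diets. The highest Glenn excess and the lowest sham deficient libraries overlap across diets. RT1-T24-4 changed by -0.96 on the log2 scale (SE 0.10, edgeR adjusted p 1.3e-08), by -1.09 on the control diet, by -1.26 on the deficient diet and by -0.51 on the excess diet, where the adjusted p was 0.058.

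RT1-S3, a class I-like gene with an ample signal in every library, ranged from 585 to 1438 CPM (median 823) in sham and from 510.2 to 789 CPM (median 613) in Glenn libraries. Its 5 Glenn control libraries, at 535 to 691 CPM, lay below the 5 sham control libraries, at 784 to 1047 CPM, a separation seen in 9.41% of tested genes on that diet. The log2 change of RT1-S3 was -0.36 (SE 0.08, edgeR adjusted p 0.00039) averaged over diets. RT1-M3-1, the rat relative of the mouse gene for H2-M3, which presents formylated peptides, ran from 45.2 to 79.8 CPM in sham and from 25.1 to 52.9 CPM in Glenn libraries. It fell by 0.47 on the log2 scale, with overlap between the groups in each diet.

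RT1-CE1, RT1-CE14 and the RT1-CE15 row ENSRNOG00000065311 belong by name to the class I genes of the C/E region, which lie in a tandem array. RefSeq lists RT1-CE14 as miscellaneous RNA and RT1-M10-1 as long non-coding RNA, not as protein-coding, so their class rests on the name. RT1-CE1 ran from 132 to 344 CPM (median 244) in sham and from 78.5 to 253 CPM (median 137) in Glenn libraries, and fell by 0.61 on the log2 scale (SE 0.11). RT1-CE14 fell by 0.74 and the RT1-CE15 row by 0.72. Another RT1-CE15 row, ENSRNOG00000048951, averaged under 1 CPM and did not pass the threshold. Here and below, the RT1-CE15 row means ENSRNOG00000065311. On the excess diet the RT1-CE15 row was 11.3 to 20.3 CPM in sham and 2.73 to 10.7 CPM in Glenn libraries, with no overlap, which 7.75% of tested genes showed there. All 5 sham excess libraries are in the 300s, whereas 3 Glenn excess libraries are in 598 to 606. Those 3 lay below the other 2 Glenn excess libraries in this row, and the separation takes no account of the range. RT1-T24-1 fell by 0.63 and RT1-M10-1 by 0.13. The changes of RT1-A1 (-0.43, edgeR adjusted p 0.053), RT1-CE2 (-0.24), RT1-N3 (0.12), RT1-CE16 (-0.39) and RT1-O1l1 (0.04) did not pass the threshold, and the sign for RT1-N3 turned with the type 2 alveolar marker score as a term (-0.05), as did that for RT1-O1l1 in the 300s alone (-0.28).

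Summed over the 22 class I and class I-like rows, a quantity that does not depend on how reads were shared among them, the level was 3193 ± 593 CPM (SD, n = 15) in sham and 2153 ± 264 CPM (SD, n = 15) in Glenn libraries. The control-diet values were 2781 to 3850 CPM for sham and 1885 to 2376 CPM for Glenn libraries and did not overlap. On the other diets they did: the lowest sham deficient library was at 2342 and the highest Glenn deficient library at 2490 CPM, and the corresponding values on the excess diet were 2312 and 2746 CPM. The Glenn mean was the lower one in each of the 3 diets. These sums carry no range term, and they differed between library ranges. The means in the 300s and in 598 to 606 were 4179 and 2748 CPM in sham deficient libraries. They were 2028 and 2393 CPM in Glenn deficient and 2597 and 1987 CPM in Glenn excess libraries. All 5 sham excess libraries are in the 300s, so surgery and range are not balanced on that diet. No test was made on the sums.

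**Figure D2:**
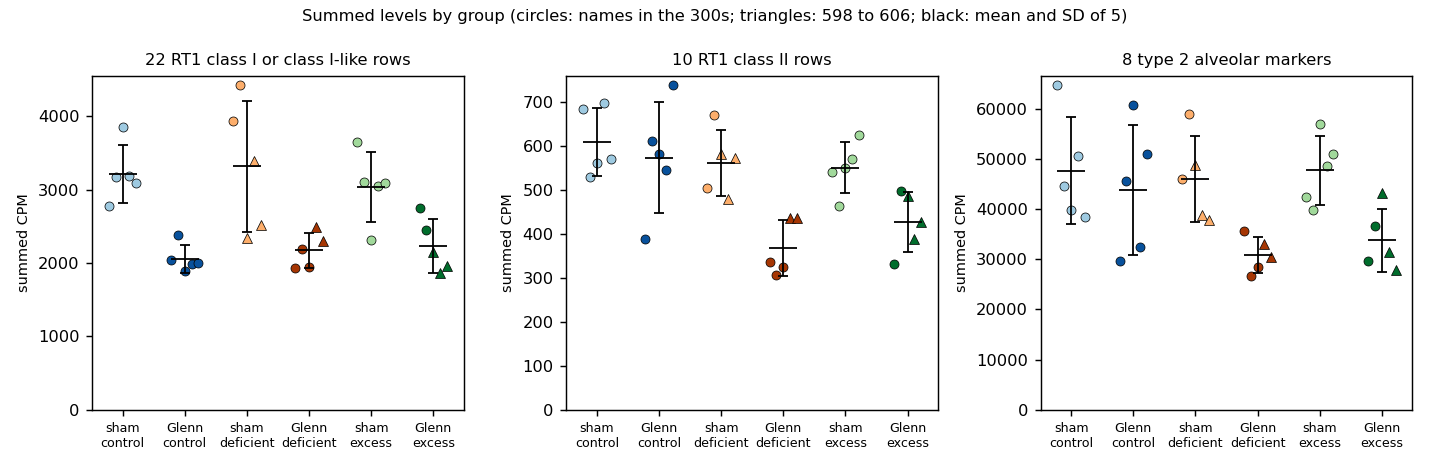
Summed CPM of the 22 class I or class I-like rows, the 10 class II rows and 8 type 2 alveolar markers in each of the 30 libraries by group, with the mean and SD of 5 in black. Class I sums of the Glenn control libraries lie below those of all sham control libraries, whereas class II sums separate on the deficient diet, as the type 2 alveolar sums do.

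Of the class I machinery, Psmb9 ran from 97.8 to 208 CPM (median 131) in sham and from 73.3 to 128 CPM (median 89.1) in Glenn libraries. The Psmb9 change was -0.49 (log2, SE 0.09, edgeR adjusted p 4.6e-05), and it passed on the control diet (-0.58) and the deficient diet (-0.64). Psmb8 changed by -0.39 and Psmb10 by -0.28. Their constitutive counterparts Psmb5, Psmb6 and Psmb7 did not pass the threshold, at -0.10, -0.07 and -0.03.

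Tap1 ran from 142 to 454 CPM (median 211) in sham and from 117 to 253 CPM (median 149) in Glenn libraries, a log2 change of -0.41. Tap2, at 97.3 to 152 CPM in sham and 77.1 to 117 CPM in Glenn libraries, fell by 0.37 (SE 0.07, edgeR adjusted p 6e-05). B2m fell by 0.23, from a median of 2993 CPM to one of 2489 CPM. Tapbp did not pass (-0.22, SE 0.14). Its level in sham control replicate 3 was 428 CPM beside 188 to 215 CPM in the other 4 of its group.

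Nlrc5, the class I activator, fell by 0.53 (log2, SE 0.16, edgeR adjusted p 0.0092). Its levels were 25.5, 31.2, 36.3, 29.2 and 29.4 CPM in sham control and 24.9, 29.9, 16.6, 14.7 and 13.1 CPM in Glenn control libraries. In the sham deficient group they were 67.4, 102.5, 14.8, 21.8 and 33.5 CPM, so replicates 1 and 2 lay above every other library of the study, the next being at 39.1 CPM. Glenn deficient libraries were at 20.2 to 32.3 CPM. Without those 2 sham libraries the averaged change of Nlrc5 was -0.39 and still passed, and that on the deficient diet went from -0.93 to -0.23 and did not pass. The same 2 libraries were the highest of all in Tap1 and RT1-S3. Without them the change on the deficient diet went from -0.70 to -0.37 for Tap1 and from -0.57 to -0.26 for RT1-S3, neither past the threshold, and that of RT1-T24-4 was -1.01 and passed.

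**Figure D3:**
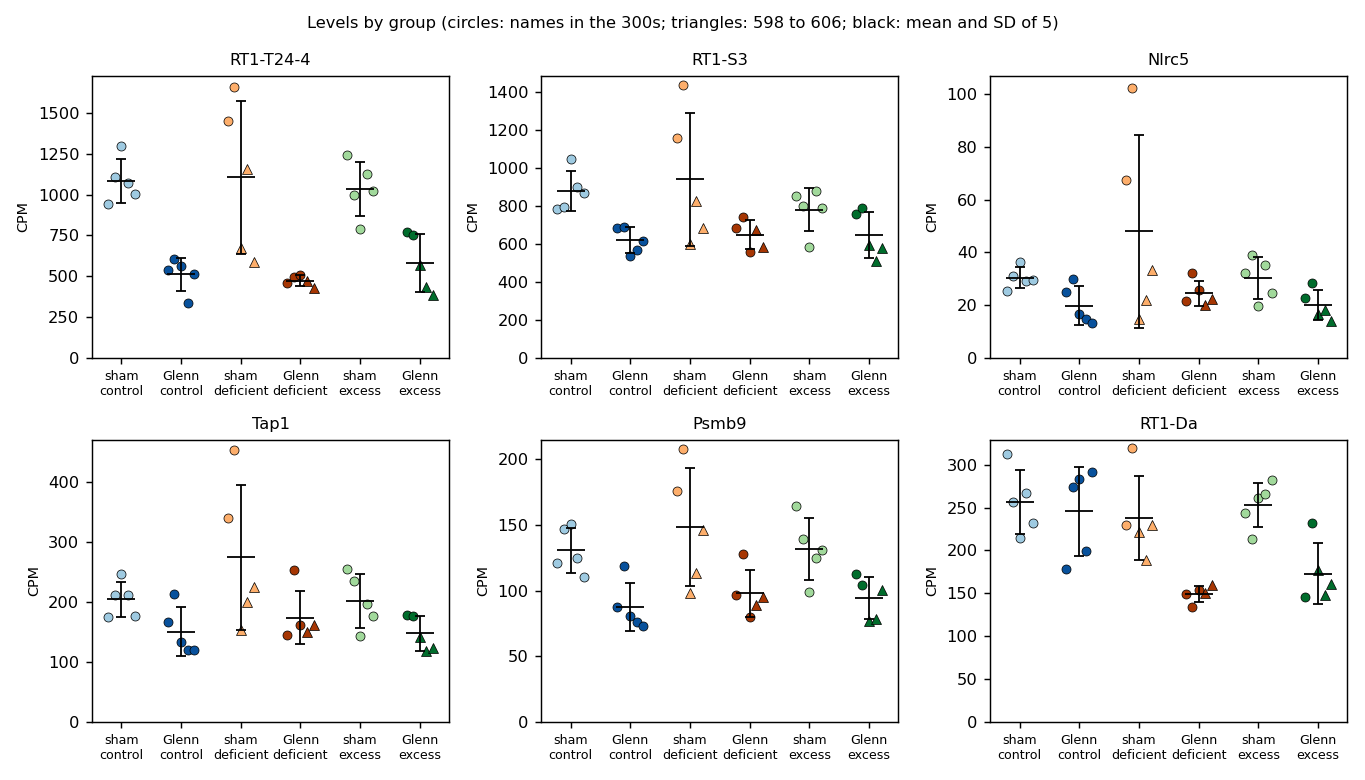
CPM of RT1-T24-4, RT1-S3, Nlrc5, Tap1, Psmb9 and RT1-Da in each library by group, circles for names in the 300s and triangles for 598 to 606, with the mean and SD of 5 in black. The 2 circles of the sham deficient group stand at 67.4 and 102.5 CPM in Nlrc5, above all other libraries, and RT1-Da is low in the Glenn deficient group, at 134 to 160.0 CPM.

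Of the 10 class II rows, RT1-Da and RT1-Db1 kept their Glenn libraries below their sham libraries on the deficient diet, and the other 8 overlapped there. The RT1-Da chain was 312, 257, 214, 267 and 232 CPM in sham control and 179, 274, 284, 199.8 and 291 CPM in Glenn control libraries, which overlap (log2 change -0.06). After the deficient diet it was 229, 319.9, 221, 189 and 229.7 CPM in sham and 149.7, 134, 153, 150.04 and 160.0 CPM in Glenn libraries, with no overlap, as 9.59% of tested genes showed on that diet. RT1-Da changed by -0.69 (edgeR adjusted p 0.00039) with the deficient diet and by -0.46 (edgeR adjusted p 0.033) with the excess diet. The partner chain RT1-Db1 and the invariant chain Cd74 were also below every sham library in all 5 Glenn deficient libraries. Cd74 stood there at 715 to 869.5 CPM against 1027 to 1743 CPM.

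Averaged over diets, RT1-Da (-0.40), RT1-Bb (-0.39), RT1-Db1 (-0.39), RT1-Ba (-0.35) and RT1-DMb (-0.29) fell, as did Cd74 (-0.44) and the class II activator Ciita (-0.39). RT1-DMa (-0.24), the DM-modulating chain RT1-DOa (-0.53), which was under 3 CPM in all libraries, and the pseudogene RT1-Hb-ps1 (-0.14) did not pass. The 10 class II rows summed to 573 ± 70.2 CPM (SD, n = 15) in sham and 456 ± 122 CPM (SD, n = 15) in Glenn libraries.

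Type 2 alveolar markers moved beside the class II genes. All 8 fell in the averaged contrast (median -0.44 on the log2 scale) and on the deficient diet (-0.61), 3 of 8 fell on the excess diet (-0.56) and 0 of 8 on the control diet (-0.15). Their sum was 43866 ± 12960 CPM (SD, n = 5) in Glenn control and 30844 ± 3532 CPM (SD, n = 5) in Glenn deficient libraries. With the mean log2 level of those markers as a further term, the averaged calls went from 5 to 0 of 10 class II genes, from 8 to 6 of 17 class I genes and from 9 to 7 of 10 processing genes. The share of all tested genes called in that contrast went from 48.2% to 38.4%, and of those called lower from 24.7% to 19.8%. Under that term RT1-Da was at -0.12, Cd74 at -0.12 and Ciita at -0.26, none past the threshold, and RT1-DMb had the other sign (0.05). RT1-T24-4 stood at -0.88, Psmb9 at -0.57, Nlrc5 at -0.56 and Tap1 at -0.48, all past it. In such bulk samples fewer cells of a type and less RNA per cell cannot be told apart.

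Markers of other cells known to make class II were counted in the contrast averaged over diets. Of all tested genes 24.7% were called lower there and 23.4% higher, 48.2% in all, which holds for every marker count below. The 5 leukocyte markers tested gave 0 calls averaged over diets (at -0.53 to 0.16), the 4 B-cell markers 0 and the 5 T and NK markers 0. Of the 6 dendritic-cell markers tested, Zbtb46 (-1.03) and Batf3 (-0.87) fell and Ccr7 (1.12) rose, and the 7 listed summed to 48.01 to 72.2 CPM in sham and 25.6 to 40.4 CPM in Glenn libraries, which did not overlap. Of the 7, Zbtb46 alone kept its Glenn libraries below its sham libraries over all diets, as 2.73% of tested genes did, and the others overlapped. Which cells made Zbtb46 was not tested, so the separated sum does not show that dendritic cells were fewer. Of 6 macrophage and monocyte markers Cd68 and Lyz2 fell and Csf1r rose, and Lyz2 is made by type 2 alveolar cells too. Mural and fibroblast markers rose in 8 of 8 (median 1.24). Of 8 endothelial markers 4 fell and 3 rose, of 5 general capillary markers 4 fell and 0 rose, and of 5 aerocyte capillary markers 3 fell and 1 rose. The part of these in the falls described above was not tested. The type 2 alveolar term does not measure such a part either, because all 8 of its markers fell with the Glenn operation.

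By diet, 5 of the 37 genes fell with the control diet, 20 with the deficient diet and 2 with the excess diet, and 0 rose with any. The shares of all tested genes called lower were 13.1%, 13.7% and 10.4%, and those called in either direction 24.9%, 27.4% and 21.9%. On the control diet they were RT1-T24-4, RT1-M3-1 (-0.64), RT1-S3 (-0.51), Psmb9 and Tap2 (-0.33). The 20 on the deficient diet comprised 8 class I, 5 class II and 7 processing genes. Without sham deficient replicates 1 and 2 they were 8, where 17.9% of all genes tested were called and 8.87% called lower, and without replicate 2 alone they were 15. The control diet gave 9 without Glenn control replicate 2. The excess diet gave Cd74 (-0.50) and RT1-Da, and 0 without sham excess replicate 5, 1 without sham excess 4, Glenn excess 1 or Glenn deficient 5, and 4 without Glenn control 1, sham deficient 2, sham excess 2, Glenn excess 2 or Glenn excess 3. Sham excess has 0 and Glenn excess 3 libraries of names 598 to 606, so the excess-diet comparison leans on the range term. With no range term more of the 37 genes were called on the excess diet and fewer on the deficient diet, as given below. Of all genes 27% and 27.1% were then called on these diets. These counts do not show that the diets differ. The interaction of surgery and diet called 0 of 37 genes (0.00618% of all tested) in edgeR, 0 in DESeq2 and 0 in limma voom, and 6 were at an unadjusted p under 0.05, as were 5.72% of all genes. The smallest adjusted p there among RT1-Da, RT1-S3, RT1-T24-4, Cd74, RT1-DMa and the RT1-CE15 row was 0.75, for RT1-Da.

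Diets were also compared within a surgery. Deficient against control called 0 of 37 after sham and 0 after Glenn surgery (0% and 0.00618% of all tested), and excess against control called 0 after sham surgery (0.241%, 0.155% higher and 0.0866% lower). At an unadjusted p under 0.05 there were 14, 15 and 8 genes in these 3 comparisons, and 5.22%, 9.88% and 11.1% of all genes. DESeq2 called 4, 4 and 2 of the 37 genes, and 0.161%, 0.39% and 1.3% of all genes. Limma voom called 0, 2 and 2, and 0%, 0.266% and 0.73% of all genes. Excess against control after Glenn surgery called 1, RT1-Bb, at -0.81 (SE 0.21, edgeR adjusted p 0.045), where 1.47% of all genes were called, 0.89% higher and 0.575% lower. RT1-Bb was 58.2, 95.1, 87.7, 118 and 153 CPM in Glenn control and 53.2, 68.2, 104, 79.2 and 91.1 CPM in Glenn excess libraries, which overlap widely, and the call was absent with no range term, in the 300s alone, with the Y-linked level as a term and in 18 of the 30 fits that left out 1 library. Excess against control after Glenn surgery gave 4 without Glenn control replicate 1, as did deficient against control. The control-diet groups and sham excess have no library of the later range. These comparisons therefore lean on the range term, except excess against control after sham surgery.

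The second comparison concerns the 2 ranges of library names. It was estimated within sham deficient, Glenn deficient and Glenn excess, the groups that hold both. Of 37 genes 15 differed, 13 lower and 2 higher in names 598 to 606, where 0.934% of all tested genes were called lower and 0.705% higher, 1.64% in all. RT1-CE16 was higher by 4.39 (log2, SE 0.74, edgeR adjusted p 0.0053) and RT1-Bb by 0.68. Lower were RT1-A1 (-1.77), RT1-T24-1 (-1.61), the RT1-CE15 row (-1.59), RT1-CE2 (-1.45), Nlrc5 (-0.96), RT1-N3 (-0.95), Psmb8 (-0.89), RT1-CE1 (-0.82), RT1-DMa (-0.61), Tap1 (-0.60), RT1-T24-4 (-0.60), RT1-S3 (-0.47) and Psmb10 (-0.38). The summed RT1-CE rows, RT1-CE16 included, went the other way, and no test was made on them. Their means in the 300s and in 598 to 606 were 430 and 773 CPM in sham deficient libraries. They were 231 and 1071 CPM in Glenn deficient and 337 and 618 CPM in Glenn excess libraries, without overlap in any group. With RT1-A1 added, the later mean was again higher in each, at 894, 1110 and 690 CPM against 734, 449 and 549 CPM.

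Without sham deficient replicates 1 and 2 the count was 9, where 0.915% of all genes tested were called, and the changes of Nlrc5 (-0.47), Tap1 (-0.36), RT1-T24-4 (-0.41) and RT1-S3 (-0.25) did not pass. Without replicate 2 alone the count was also 9. In 8 genes every library of the later range lay below every library of the 300s in each of the 3 groups, as 0.668% of tested genes did: RT1-A1, RT1-CE1, RT1-CE2, the RT1-CE15 row, RT1-T24-1, RT1-N3, RT1-DMa and Psmb8. RT1-CE16 and RT1-Bb lay above in each, as 0.86% of tested genes did. RT1-Bb is the beta chain paired with RT1-Ba, which was at 0.45 and did not pass, and the class II chains RT1-Da (-0.16) and RT1-Db1 (0.24) did not pass either.

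**Figure D4:**
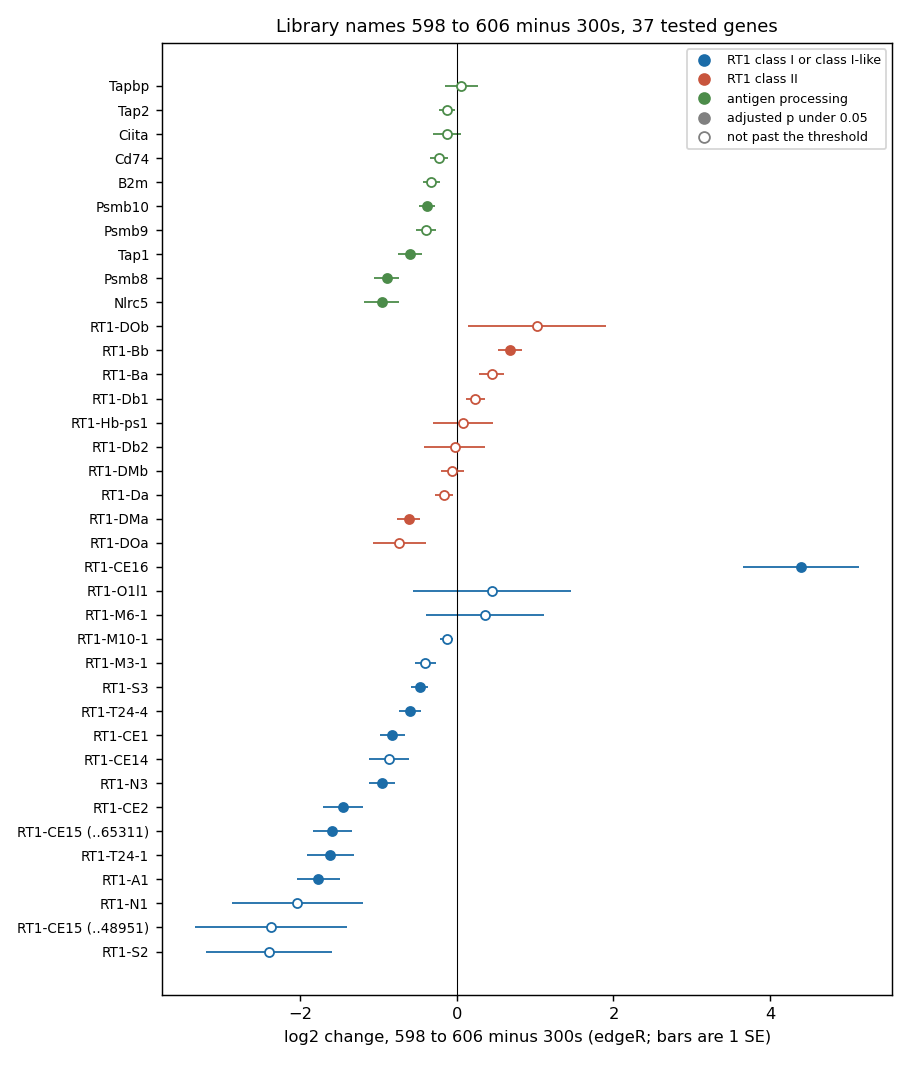
Log2 change, library names 598 to 606 minus 300s, of the 37 tested genes with 1 standard error, coloured by class and filled where the adjusted p was under 0.05. RT1-CE16 stands alone at 4.39, and RT1-A1, RT1-T24-1, RT1-CE2 and an RT1-CE15 row lie between -1.77 and -1.45.

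RT1-CE16 took 2 levels. Its values were 27.8, 39.4, 673, 562 and 556 CPM in sham control and 22.3, 31.5, 29.1, 533 and 407 CPM in Glenn control libraries. They were 40.7, 32.9, 452, 643 and 574 CPM in sham deficient and 21.9, 28.9, 23.1, 943 and 949 CPM in Glenn deficient libraries. In sham excess they were 44.4, 36.2, 25.7, 34.6 and 34.0 CPM and in Glenn excess 32.8, 28.5, 556, 436 and 468 CPM. Thus 17 libraries lay at 44.4 CPM or below and 13 at 407 CPM or above, with none between. All 8 libraries of the later range are among the 13, and the other 5 belong to the control diet. Within the 3 groups that hold both ranges the high level and the later range are the same libraries and cannot be told apart. A mean of RT1-CE16 over a group therefore tells how many of its libraries were high, and its surgery change turned sign with no range term (0.81).

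RT1-O1l1 also took 2 levels, with other libraries on each side. In 11 libraries it was 0.984 to 1.88 CPM and in 19 it was 36.9 to 78.4 CPM. The 19 were the 13 libraries high in RT1-CE16 and 6 that were low in it: sham deficient 1 and 2, Glenn deficient 1 and 2, sham excess 4 and Glenn excess 2. The fourth combination, RT1-CE16 high with RT1-O1l1 low, was found in 0 libraries. Among the 13479 tested genes that averaged 1 CPM or more, 97 (0.72%) had a gap of at least 1 on the log2(CPM + 1) scale with at least 3 libraries on each side, 2 of them among the 32 genes of this family that reach that mean. RT1-CE16 was the only one of the 97 that divided the libraries as it does.

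**Figure D5:**
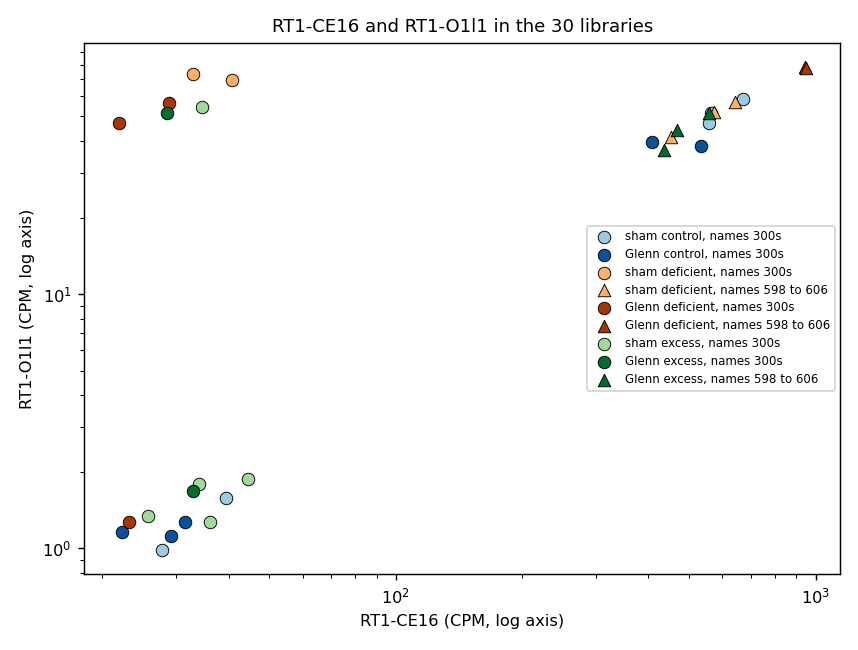
RT1-CE16 against RT1-O1l1 in CPM, both on log axes, 1 point per library, coloured by group, circles for names in the 300s and triangles for 598 to 606. The points form 3 clusters of 11, 6 and 13 libraries, and the corner with high RT1-CE16 and low RT1-O1l1 is empty.

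Other class I genes were set against the order of RT1-CE16, as a description of these libraries. Of the 13 libraries with the lowest RT1-A1, 12 were among the 13 highest in RT1-CE16. The same count was 12 for RT1-CE2, 12 for RT1-N3 and 11 for RT1-T24-1, and 0.49% of the 13479 genes reached 11 or more. In the highest direction RT1-Bb reached 11, and 0.779% of those genes did so, RT1-CE16 itself included. RT1-A1 was 28.7 to 140.3 CPM in the 13 libraries and 119 to 319 CPM in the other 17. RT1-CE2 was 10.96 to 26.0 CPM in the 13 and 24.9 to 63.6 CPM in the 17. These ranges overlap, unlike those of RT1-CE16. Glenn deficient replicates 4 and 5 lay at the end of several genes: RT1-CE16 was highest there (943 and 949 CPM), RT1-T24-1 lowest (35.6 and 35.4 CPM), and RT1-N1, named after its values were seen, lowest (0 and 0.738 CPM against 4.31 to 71.4 CPM elsewhere). 

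Genes that act around these were counted from lists, in the averaged contrast where 48.2% of all tested genes were called. Of 18 regulators of the interferon and class II promoter routes, 6 fell and 2 rose averaged over diets: the interferon factor Irf9 (-0.56, SE 0.07), the Y box-binding subunit Nfya (-0.43), Stat2 (-0.34), Irf2 (-0.30), the X box-binding Rfxank (-0.24) and the interferon-gamma receptor chain Ifngr2 (-0.19) fell, and the kinase Jak1 (0.22) and Rfx5 (0.22), another X box-binding protein, rose. Irf1 (-0.14) did not pass. Of 9 tested genes for class I peptide loading beyond the family itself, 3 fell (the proteasome activator Psme1 at -0.25, and the aminopeptidases Lnpep at -0.23 and Erap1 at -0.11) and 0 rose, and Calr, Canx and Pdia3, general chaperones, were within 0.04 of 0. Of 7 class II route genes Ctsd (-0.29), Ifi30 (-0.23) and Ctsb (-0.19) fell and Ctsl (0.23) rose.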

How the data were processed

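Bulk RNA-seq counts of 30 libraries were used. A PureLink kit gave the RNA and a SMART-Seq v4 kit the libraries, per the labels' protocols. The deposited table holds expected counts per gene that the authors made with Salmon, and the submitters' processing notes also name FastQC, Trim Galore, STAR, Picard and the build mRatBN7.2 (rn7). Their versions and the annotation release are not given in the sources used here.

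The expected counts were rounded, reduced to 16171 genes by filterByExpr in edgeR 4.0.16 with a minimum count of 10 and total of 15, scaled by TMM (factors 0.94 to 1.06) and fitted with glmQLFit (robust) and glmQLFTest over 6 group means and a term for the library range, all 30 libraries sharing one spread. Benjamini-Hochberg adjustment ran over all tested genes, and a call is an adjusted p under 0.05. The SE comes from the log2 change and its F value. Libraries of a group differed beyond sampling noise (chi-square per degree of freedom 20.2 to 119.9 in 60 pairs), so each counts as 1. Total counts, 22029047 to 77647592 (median 39968409), matter most for the genes with few counts.

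On simulated counts for the averaged contrast, with 200 of 16171 genes changed by 1 on the log2 scale, edgeR found 158 of them and called 5 others, limma voom found 157 and called 4 others, and DESeq2 found 165 and called 22 others. No diet or range difference was simulated, and in the data 48.2% of tested genes were called in that contrast. The simulated figures therefore do not give the error rate of the calls reported here. Alternatives were no range term, only the 300s, no filter, DESeq2 1.42.0 or its size factors within edgeR, limma 3.58.1 (voom with quality weights), a replicate block, an RT1-CE16 level term (above or below 100 CPM), libraries low in RT1-CE16, only the groups compared, and each library left out. The type 2 alveolar term, the term for the 2 levels of Y-linked genes and leaving out sham deficient replicates 1 and 2 together were added after seeing these values. The genes and lists were chosen with earlier results of these data known. Named are all processing genes, class II genes averaging 1 CPM or more, and class I genes that do so and are among the 10 smallest adjusted p of the averaged surgery or the range contrast, or with a gap as described, and genes called in a diet comparison. Promoter identity comes from global alignment in Biopython. R 4.3.3 and matplotlib were used.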

Additional observations from a re-analysis of the deposited data

Results flagged for a closer look

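Within each group of 5, the gap of the highest or lowest library to its neighbour was set against the group's whole range for 31 genes and the 2 class sums, 198 sets in all. By chance about 1 in 20 sets, 9.9 here, would be picked out, and 9 were. RT1-O1l1 stood out most: sham excess replicate 4 had 54.5 CPM beside 1.27 to 1.88 CPM in the other 4, a gap of 0.988 of the range. Tapbp in sham control replicate 3 had 428 CPM beside 188 to 215 CPM (0.885). Psmb10 in Glenn control replicate 2 had 88.4 CPM beside 63.6 to 67.2 CPM (0.852), and Tap1 in Glenn deficient replicate 2 had 253 CPM beside 145 to 161 CPM (0.85). Ciita was low in sham deficient replicate 4 (3.51 CPM beside 5.89 to 6.64 CPM, 0.759) and high in Glenn deficient replicate 3 (5.003 CPM beside 4.43 to 4.58 CPM, 0.736). RT1-Hb-ps1 was high in sham deficient replicate 1 (1.58 CPM beside 0.729 to 0.942 CPM, 0.749) and Cd74 in Glenn excess replicate 2 (1194 CPM beside 788 to 897 CPM, 0.732). Tap2 was low in sham deficient replicate 3 (99.7 CPM beside 137 to 152 CPM, 0.718).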

How the results depend on the processing

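Counts of genes called are given against the main ones: 5 on the control diet, 20 on the deficient diet, 2 on the excess diet, 22 averaged over diets, 1 for excess against control after Glenn surgery, 15 for the library range and 0 in the other contrasts. With no range term the deficient diet gave 12 and the excess diet 11, and 0 for excess against control after Glenn surgery. Of all genes 27.1%, 27% and 0.117% were then called. In the 300s alone, the excess diet gave 0 and excess against control after Glenn surgery 0, with 13.6% and 1.59% of all genes called. With the RT1-CE16 level as the term the control diet gave 10, the excess diet 9 and excess against control after Glenn surgery 0, and among libraries low in RT1-CE16 these gave 2, 1 and 0. The shares of all genes called were 25.5%, 25.1% and 0.482% with that term, and 9.46%, 13% and 0.0666% among those libraries. DESeq2 gave 4 on the excess diet, 4 and 4 for deficient against control after sham and Glenn surgery, and 2 and 2 for excess against control, and limma voom gave 2 for excess against control after sham and 2 for deficient against control after Glenn surgery. DESeq2 called 24.5% of all genes on the excess diet and 3.24% for excess against control after Glenn surgery. With no filter, excess against control after Glenn surgery gave 0, as with only the groups compared, where the excess diet gave 1. Of all genes 0.796% were called with no filter, and 0.0654% and 12.9% with only the groups compared. With the type 2 alveolar term the averaged count was 13, the excess diet 0 and excess against control after Glenn surgery 0, beside 38.4%, 19% and 0.618% of all genes. With the Y-linked level as a term, excess against control after Glenn surgery gave 0, beside 1.31% of all genes. Without sham deficient replicates 1 and 2 the deficient diet gave 8, the excess diet 4 and the range 9, beside 17.9%, 20.6% and 0.915% of all genes. Of 74 gene results, those whose sign turned were RT1-DMb (0.047), RT1-Hb-ps1 (0.31) and RT1-N3 (-0.048) with the type 2 alveolar term, RT1-CE16 (0.81) with no range term, and RT1-O1l1 in the 300s (-0.28), with the RT1-CE16 term (-0.21), among libraries low in RT1-CE16 (-0.0040) and with 1 library left out in 12 of 30 cases (-0.19 to 1.02 over the 30). The cause was not tested.

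Leaving out each library in turn gave 4 to 9 calls on the control diet, 15 to 21 on the deficient, 0 to 4 on the excess diet, 20 to 24 averaged, 0 to 0 and 0 to 1 for deficient and excess against control after sham surgery, 0 to 4 and 0 to 4 after Glenn surgery, 0 to 0 for the interaction and 9 to 15 for the range. The highest counts after Glenn surgery were reached without Glenn control replicate 1. The labels do not say that replicate numbers pair libraries. The correlation of deviations over 75 same-number pairs was -0.25 to 0.29 (median 0.10, against -0.02 for other pairs), so not every pair was positive, while 17 of 30 libraries correlated best with their own number, a hint from the data and not the design. Replicate 1 was high in Y-linked genes in all 6 groups, and the later range holds replicates 3 to 5 alone. With the replicate block the control diet gave 8 (25.9% of all tested genes called), the excess diet 4 (21%), excess against control after Glenn surgery 0 (0.21%) and the range 0 (0%). The averaged contrast and the interaction could not be fitted with only 2 groups, nor the range contrast within 1 range or beside an RT1-CE16 term. Depth limits RT1-DOa, RT1-Hb-ps1 and the rows with few counts, where standard errors are wide.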

Other observations

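Class I-like genes outside the complex moved in both directions. Averaged over diets, 3 of 6 rose and 2 fell after the Glenn operation. In that contrast, used for the costimulation genes below too, 23.4% of all tested genes were called higher and 24.7% lower, 48.2% in all. Fcgrt, the heavy chain of the neonatal Fc receptor, which also pairs with B2m, ran from 59.7 to 81.3 CPM in sham and from 114 to 158 CPM in Glenn libraries with no overlap, which 3.1% of tested genes showed in the higher direction (log2 change 0.85, SE 0.05, edgeR adjusted p 9.5e-15). Procr, the endothelial protein C receptor, rose by 0.45 and Hfe by 0.19, and Azgp1 (-0.67) and Cd1d1 (-0.49) fell. Of 4 tested costimulation genes 1 rose, Cd274, the ligand PD-L1, by 0.60 (SE 0.10), from a median of 25.9 CPM to one of 40.2 CPM. Cd80 (0.03), Cd86 (0.05) and Cd40 (-0.02) did not pass.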
